A study of Homo sapiens with 4 samples.

Results

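The data described here are the RNA levels of Raji cells that lived on a recombinant, wild-type RNA polymerase II. Raji, an established line of human B cells, derives from a Burkitt lymphoma and is positive for Epstein-Barr virus. The cells had been electroporated with the vector LS*mock, which expresses an HA-tagged wild-type RPB1, the polymerase's catalytic subunit, in a form that resists α-amanitin. Polyclonal batches were kept after G418 and then 10 days of α-amanitin, a toxin that blocks the cells' own polymerase. The series holds 4 samples, and the members here are the 2 with the label WT, chosen by that label alone, and the 51714 gene identifiers counted in each. The other 2 samples carry the R1810A form of the same subunit under the same selection and are not analysed here. Both WT samples share the transgene, the drug and the removal of ribosomal RNA with a RiboMinus kit, so no untreated Raji cell stands beside them. The labels do not say whether the 2 samples were grown as separate cultures, so the spread between them may be technical.

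A mature B cell is defined by its antigen receptor, a membrane immunoglobulin held by the signalling chains CD79A and CD79B, and by surface proteins such as CD20 and CD22. It presents peptides on MHC class II, whose genes are switched on together by the coactivator CIITA. Burkitt lymphoma keeps the programme of a dividing germinal centre B cell, with a MYC gene that a translocation has placed under immunoglobulin control. The latent membrane protein LMP1 of Epstein-Barr virus acts like a CD40 signal and raises NF-kB responsive genes in the cells that make it.

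The 4 genes used as a check of the cell type were abundant. They are given as reads and as RPKM, reads scaled to the length of the gene and the total reads of the library, which allows levels of different genes to be compared. CD79A (ENSG00000105369) had 3411 and 3848 reads in replicates 1 and 2, or 662 and 566 RPKM. CD74, the invariant chain that guides MHC class II molecules, had 858 and 696 RPKM. MS4A1, which codes for CD20, had 305 and 192 RPKM. POU2AF1, the B cell coactivator OBF-1, had 47.0 and 51.9 RPKM. Ranked by RPKM among protein coding genes, POU2AF1 lay at percentile 97.1 and MS4A1 at 99.8, with CD79A and CD74 above them. POLR2A (ENSG00000181222), the gene of the exchanged subunit, stood at 74.3 and 72.3 RPKM. Its gene-level count does not separate transcripts of the vector from those of the chromosome.

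The libraries were small, with 2326036 reads on genes in replicate 1 and 2991959 in replicate 2. These were 56.8% and 55.4% of the total reads deposited with each file. Reads fell on 16414 and 17824 genes. A gene with 0 reads could still have had 3, which corresponds to 1.29 and 1.00 CPM, the count scaled to the summed gene counts of the library. Of all identifiers, 10391 reached an RPKM of 1 in both libraries, and 8597 of these were protein coding genes, 46.1% of the 18632 annotated. Over all protein coding genes the median of the mean RPKM was 0.647, and among the expressed ones it was 7.73.

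The ranking by counts was led by short RNAs without a name in the annotation, by translation factors and by genes of the B cell. The single largest entry was ENSG00000199916, an identifier of 264 bases that received 90188 and 119007 reads, or 3.93% of all counts. Its RPKM was 83370 in replicate 1 and 83398 in replicate 2, so the libraries differed little at this gene. ENSG00000252678 (333 bases) had 15864 and 27144 reads, and ENSG00000252666 (95 bases) had 12926 and 14893. These 3 are the largest of 10788 identifiers that have no entry in the annotation used, and together they held 5.12% and 5.38% of counts. They were kept under their identifiers and given no gene name.

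Among named genes, EEF2, the elongation factor that moves the ribosome along the message, came highest by count with 20411 and 27254 reads. IGHM (ENSG00000211899), the constant region of the immunoglobulin mu heavy chain, followed with 17814 and 20491 reads. LCP1, the actin bundling protein of leukocytes, had 10241 and 9496 reads, more in the smaller library. The ribosomal scaffold RACK1 had 8840 and 11116 reads, and JCHAIN, which joins polymeric immunoglobulin, had 6209 and 9069. ENO1, LAPTM5, HLA-DRA, CALR, ATP5F1B, CD74, MT-RNR1, B2M, PKM, ARHGDIB and PSAP completed the leading 20, together with the unnamed identifier ENSG00000121031. So B cell and antigen presentation genes (IGHM, JCHAIN, HLA-DRA, CD74, B2M) stood in the same rank range as glycolytic enzymes and translation factors. Of the 20 genes with the highest CPM in each library, 18 were shared, and of the leading 100, 88 were shared.

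Per length, the order among protein coding genes of at least 200 bases was EEF2, HLA-DRA, B2M, MT-CO3, JCHAIN, H1-5, ARHGDIB, MT-ND3, H1-4 and CD74. EEF2 stood at 1587 ± 13.7 RPKM (SD, n = 2) and HLA-DRA, the alpha chain of HLA-DR, at 1235 ± 324. B2M, the light chain of MHC class I, stood at 1069 ± 108, and JCHAIN at 950.3 ± 68.4. The gap from EEF2 to HLA-DRA was about as large as the SD of HLA-DRA, and neighbours further down, such as H1-5 at 809.4 ± 43.7 and ARHGDIB at 807.3 ± 84.7, lay within each other's spread. Counts were spread over many genes below this top. The 10 leading genes held 8.47% of counts, 100 genes 18.4% in replicate 1 and 17.7% in replicate 2, 1000 genes 47.9% and 5000 genes 87.7%, and 1107 genes were needed to reach 50%.

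Protein coding genes took 89.2% of counts in replicate 1 and 88.9% in replicate 2. Identifiers without an annotation entry took 7.19% and 7.57%, of which the 3 short RNAs above were the larger part. Pseudogenes took 1.63% and 1.56%. Immunoglobulin and T cell receptor segments took 0.822% (95% exact Clopper-Pearson interval 0.811 to 0.834) in replicate 1 and 0.747% (0.737 to 0.756) in replicate 2, and IGHM alone was the bulk of this. Long noncoding RNAs took 0.648% and 0.721%, and snoRNAs with the small Cajal body RNAs (scaRNAs) took 0.254% and 0.277%. Mitochondrial rRNA and tRNA took 0.242% (0.235 to 0.248) and 0.164% (0.159 to 0.168), the class whose share differed most in proportion between the libraries among the classes named here. The intervals cover counting error only, and reads of one amplified fragment are not independent molecules.

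**Figure D1:**
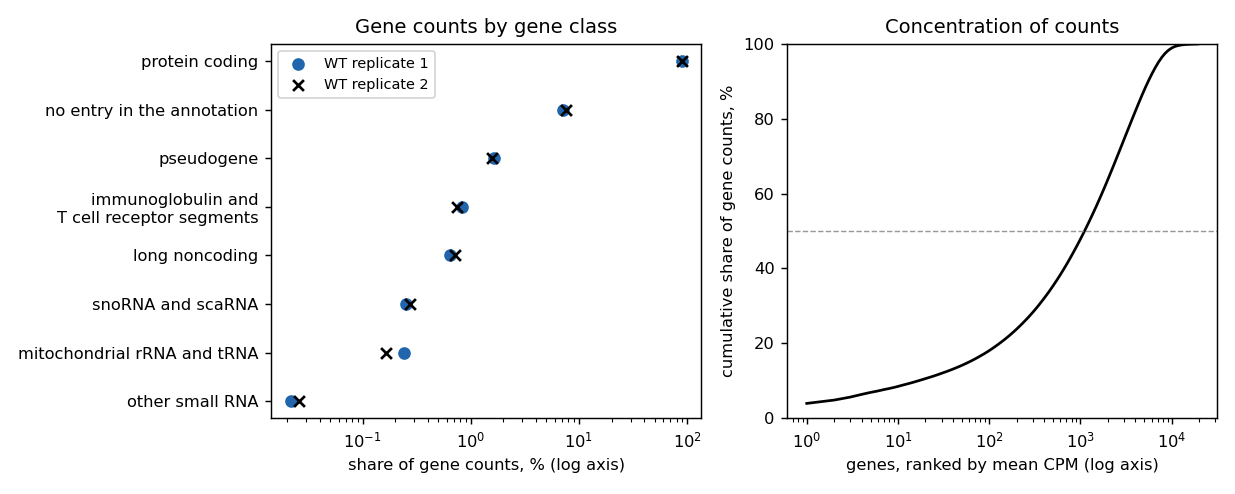
Left, share of gene counts in each gene class (x, %, log axis) for WT replicate 1 (circles) and replicate 2 (crosses). Right, cumulative share of counts (y, %) over genes ranked by mean CPM (x, log axis), with the dashed line at 50%, which the curve crosses at 1107 genes.

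Genes of the B cell surface and antigen receptor were expressed nearly throughout. Of the 19 members with an identifier, 16 reached 1 RPKM in both libraries, with a median of 18.8 RPKM. CD79A led at 614 ± 67.7 RPKM (SD, n = 2), then CD79B, its partner chain, at 355 ± 58.4 and MS4A1 at 249 ± 79.9. FCRLA, an intracellular Fc receptor-like protein of B cells, followed at 159 ± 7.72. CD180 stood at 50.1 and CD22, an inhibitory receptor, at 48.2 RPKM. CR2, which is CD21 and the receptor by which Epstein-Barr virus enters B cells, stood at 14.2. At the low end FCRL1 had 3 and 4 reads and FCRL5 had 23 and 5, far below FCRLA.

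All 18 receptor signalling genes were expressed. PLCG2, the phospholipase that the receptor activates, was highest at 85.6 ± 4.31 RPKM, followed by the adaptor PIK3AP1 at 71.6 ± 12.0. PRKCB and PIK3CD, a kinase and the leukocyte form of the PI3-kinase catalytic subunit, stood near 40 RPKM, at 39.9 and 37.9. The tyrosine kinases BTK and SYK stood at 25.8 and 16.4. BLNK, the linker that joins SYK to PLCG2, was the lowest of the list at 3.45 RPKM, with 60 and 77 reads.

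B cell transcription factors were also expressed nearly without exception, 20 of 21 in both libraries, at a median of 14.02 RPKM. TCF3 (E2A) was highest at 95.9 ± 6.94, then IKZF1 (Ikaros) at 55.0 ± 11.9, POU2AF1 at 49.4 ± 3.48 and SPI1 (PU.1) at 48.4 ± 0.865. ID3, an inhibitor of E2A, stood at 46.2 and IRF8 at 43.0. PAX5, the factor that fixes B cell identity, stood at 14.6 RPKM, and EBF1 at only 3.23 with 66 and 96 reads. BACH2 was the member under the threshold in 1 library, with 33 and 73 reads.

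The germinal centre list was expressed in all 14 members. CXCR4, the chemokine receptor of dark zone cells, led at 115 ± 10.5 RPKM. Among the others GCSAM stood at 83.6 ± 1.07, STMN1 at 66.2 ± 4.79 and SERPINA9 at 64.4 ± 15.8. MME, which is CD10, stood at 13.4 ± 4.41, and BCL6, the repressor that holds cells in the germinal centre state, at 4.01 ± 1.43 with 73 and 161 reads.

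Plasma cell genes split. JCHAIN stood at 950.3 RPKM, CD27 at 230.0, MZB1 at 72.5 and XBP1 at 61.1, the last a factor of the secretory response. PRDM1, which codes for the plasma cell regulator BLIMP1, had 3 and 8 reads (0.174 RPKM), and SDC1 (CD138) had none. Precursor genes were mostly silent at this depth: VPREB3 stood at 138 RPKM and SOX4 at 2.08, while the other 8 of 10, among them RAG1, RAG2, DNTT and VPREB1, had at most 4 reads in a library. Of 14 immunoglobulin constant regions, IGHM held nearly all reads, against 30 and 64 for IGHD and 11 and 22 for IGHG1. The kappa constant region IGKC had 4 and 4 reads. On the lambda side IGLV6-57 had 277 and 301 reads and the segment IGLC6, typed as a pseudogene in the annotation, had 547 and 670. Constant regions are near copies of each other, so reads among them could have been split or dropped by the counting.

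**Figure D2:**
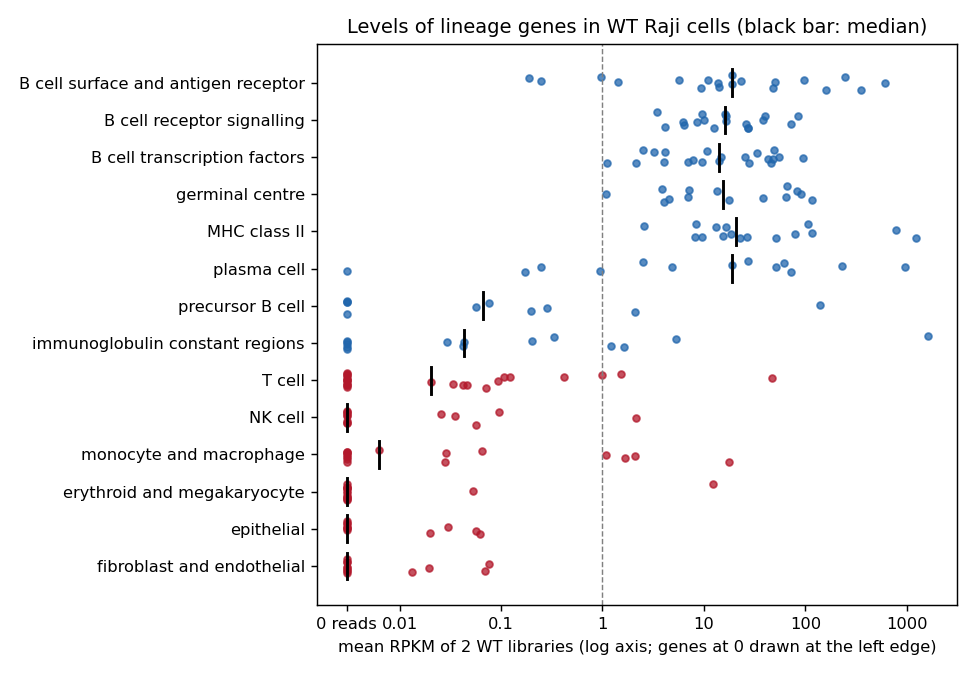
Each point is 1 gene, at its mean RPKM over the 2 WT libraries (x, log axis, genes without reads at the left edge), by gene list (y), and black bars are list medians. Blue marks B lineage lists and red marks lists of other cell types, where 7 of 88 genes lie at 1 RPKM or above in both libraries (dashed line at 1).

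Lists of other cell types served as the contrast. Over 6 such lists, 7 of 88 genes (7.95%) reached 1 RPKM in both libraries and 53 had no read, against 82 of 86 genes (95.3%) of the B cell surface, signalling, transcription factor, germinal centre and MHC class II lists and 46.1% of all protein coding genes. The summed RPKM of the other lists was 74.0 and 102, against 6204 and 5063 for the B cell lists. TRBC2, a constant region of the T cell receptor beta chain, was the highest by RPKM, at 31.1 and 63.0 with 166 and 444 reads. LCK, a kinase best known from T cells, had 21 and 27 reads, while CD3D had none and CD3E and CD3G had at most 2. CSF1R, the receptor of macrophage colony-stimulating factor, had 445 and 394 reads, ITGAM had 56 and 33, and LYZ had 8 and 17, while S100A8 had no read and CD14 had 1. NKG7 had 10 and 6 reads beside none for GNLY. EPOR, the erythropoietin receptor, had 77 and 145 reads beside none for HBB. No gene of the epithelial or the fibroblast and endothelial list passed, and EPCAM and KRT18 had no read.

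All 16 MHC class II genes were expressed, with a median of 20.5 RPKM. HLA-DRA stood at 1235 RPKM and CD74 at 777, far above HLA-DRB1 at 116 ± 37.9, HLA-DPA1 at 106 ± 32.5 and HLA-DPB1 at 78.9 ± 24.2. HLA-DQA1 stood at 26.5 and HLA-DQB1 at 15.4. The regulators were lower: RFX5 stood at 22.6, RFXANK at 16.4, CIITA at 8.44 and RFXAP at 2.54. The HLA-DRB and HLA-DQ genes have near-identical relatives and many alleles, so levels between them are uncertain. Class II promoters share a set of boxes, of which the Y box is bound by the factor NF-Y. The letters CTGATTGG were searched on both strands over 250 bases before each start in the RefSeq promoters of build GRCh38.p14. They were present in 5 of 14 genes of the class II list (35.7%), the regulator RFX5 among them, and in 4.59% of all 27305 genes. They are not particular to class II, with 11 of 31 promoters of replication-dependent histones (35.5%) and 4 of 19 of proliferation genes (21.1%). The B cell surface and receptor signalling lists had 0 of 13 and 0 of 15. The shorter letters ATTGG, the end of the box, were in 11 of 14 class II promoters (78.6%) and 37.0% of all genes. They were also in 28 of 31 histone promoters (90.3%), 8 of 13 of the B cell surface list (61.5%) and 5 of 15 of the signalling list (33.3%). The windows of 2 beta chain genes are shown because their box and its flanks run in parallel, with the Y box in capitals.
HLA-DRB1, chr6:32589854-32589933, minus strand: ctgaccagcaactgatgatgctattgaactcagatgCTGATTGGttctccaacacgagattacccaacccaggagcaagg
HLA-DQB1, chr6:32666705-32666784, minus strand: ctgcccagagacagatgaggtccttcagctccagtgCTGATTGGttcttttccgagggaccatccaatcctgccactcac
The box begins 49 bases before the start of HLA-DRB1 and 91 bases before that of HLA-DQB1. These are reference sequences, not those of Raji.

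Genes of growth and division were high. All 20 genes of the Burkitt lymphoma and MYC list were expressed, with a median of 39.4 RPKM, the DNA repair enzyme APEX1 leading at 199 ± 12.6, then ODC1 at 158 ± 3.32, CDK4 at 140.2 ± 1.89 and FBL at 132 ± 1.89. MYC itself had 864 and 1593 reads, 70.4 and 98.4 RPKM. All 24 proliferation genes were expressed, led by the replicative helicase subunit MCM4 at 134 ± 4.89 and the sliding clamp PCNA at 79.4 ± 7.86. All 12 subunits of RNA polymerase II were expressed, from POLR2L at 143 RPKM to POLR2F at 6.53. POLR2A, the replaced subunit, stood at 73.3 ± 1.39 and POLR2E at 74.9 ± 6.11, so POLR2A lay within the SD of POLR2E. The genes of CARM1 and TDRD3, a methyltransferase and a reader of methylated arginine, stood at 61.6 ± 7.53 and 2.66 ± 0.747 RPKM.

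Glycolytic enzymes were expressed in 16 of 17 members, ENO1 at 388 ± 92.8 RPKM, PKM at 344 ± 64.9 and ALDOA at 267 ± 46.1, but GAPDH at only 38.4 ± 3.63. Translation genes were uneven in the same way. EEF2 stood at 1587 RPKM while EEF1A1, its partner in elongation, stood at 13.8 ± 2.50 with 293 and 500 reads. Of 85 cytosolic ribosomal protein genes, 74 were expressed, from RPS20 at 428 RPKM down, with a median of 10.8. RPL7 had 10 and 23 reads, and RPL41 and the testis gene RPL10L had none. Several of the low genes have many processed copies: the annotation lists 39 pseudogenes named after EEF1A1 and 62 named after GAPDH, but none after EEF2. Within the ribosomal protein genes the number of named copies and the mean RPKM were only weakly related (Spearman's rho -0.13 across 85 genes, which share their libraries), and EEF1A1 copies held 43 and 83 reads. The part of copies in these levels was not tested, and how reads with several matches were counted is not given in the sources used here.

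Replication-dependent histone genes, whose messages lack a poly(A) tail and are lost when RNA is selected by it, were well covered in these rRNA-depleted libraries. Of 35 identifiers, 24 were expressed, led by the linker histones H1-5 at 809 and H1-4 at 785 ± 26.1 RPKM, then H4C3 at 509 and H1-2 at 405. H3C4, H3C12, H2AC21 and H2BC11 stood between 322 and 230 RPKM. The octamer ATGCAAAT, the site bound by OCT-1 and its relatives, was found in 13 of 31 histone promoters (41.9%) against 2.03% of all genes. In the B cell lists it was in 3 of 17 transcription factor promoters (17.6%) and 2 of 11 germinal centre promoters (18.2%). It was in 1 of 15 promoters of the receptor signalling list, 0 of 13 of the B cell surface list and 0 of 14 of the MHC class II list. H2B promoters are the classic case, and 2 expressed ones are printed with the octamer in capitals (here on the opposite strand, in the same build).
H2BC11, chr6:27132799-27132878, minus strand: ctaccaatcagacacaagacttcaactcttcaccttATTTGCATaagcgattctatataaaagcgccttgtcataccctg
H2BC4, chr6:26124006-26124085, minus strand: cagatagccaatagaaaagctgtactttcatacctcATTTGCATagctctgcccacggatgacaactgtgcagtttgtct
H2BC11 stood at 230 RPKM with 434 and 595 reads and H2BC4 at 103 with 520 and 762.

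The counted levels of mitochondrially encoded genes ranged widely although these genes come from shared precursor transcripts. MT-RNR1, the small ribosomal RNA, stood at 1174 ± 353 RPKM, MT-CO3 at 996.1 ± 39.1, MT-ND3 at 806 ± 103 and MT-CYB at 717. MT-CO1 stood at 15.3, MT-ND2 at 24.0 and MT-CO2 at 31.5, and MT-RNR2, the large ribosomal RNA, had 1 and 3 reads. How reads with several matches were counted is not given, and its part in these levels was not tested. The low values may therefore not be the levels of the RNAs. Of the small RNAs with a name, the H/ACA RNA SNORA73B was highest at 1837 ± 355 RPKM, then the C/D RNA SNORD17 at 684 ± 124 and the Cajal body RNA SCARNA12 at 613 ± 14.6. RNU5E-1 led the spliceosomal RNAs at 180 ± 1.00 RPKM with 88 and 117 reads, and only 20 of 1785 spliceosomal and U7 entries were expressed. 7SK had 80 and 107 reads. The limit on reads with several matches holds for these small RNAs too, and identifiers without an annotation entry were not assigned to any of them. Their counts may therefore not be the levels of the RNAs. Among nuclear long noncoding RNAs MALAT1 stood at 28.0 RPKM (96 and 185 reads) and GAS5, a host of snoRNAs, stood at 20.2 and 23.7 RPKM in replicates 1 and 2.

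The 2 libraries ranked genes alike. Across the 11986 genes with at least 10 reads summed over both libraries, Pearson's r of log2(RPKM + 0.1) was 0.973 and Spearman's rho of RPKM was 0.977, given as descriptions across genes that are not independent. The coefficient of variation beyond counting error, estimated with edgeR from the 2 libraries, was 11.5% over 10404 genes. After TMM scaling, a two-sided exact binomial test per gene with Benjamini-Hochberg adjustment at 0.05 called 1193 genes (9.95%) different between the libraries. Of these 693 (5.78%) were higher in replicate 1 and 500 (4.17%) higher in replicate 2, and 155 differed by more than 2-fold. The test compares 2 libraries, not conditions.

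**Figure D3:**
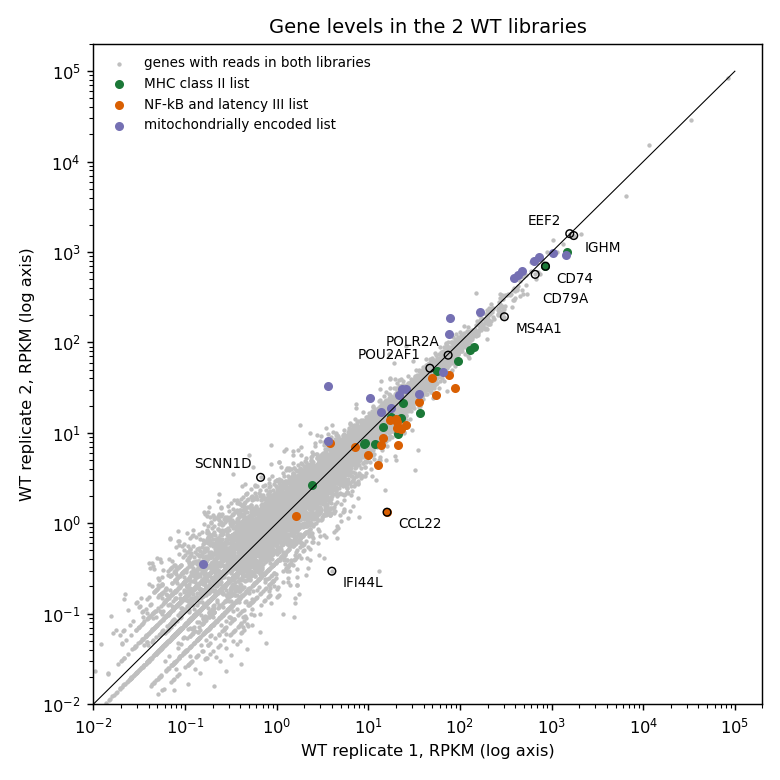
Each point is a gene with reads in both WT libraries, at its RPKM in replicate 1 (x) and replicate 2 (y), both log axes, with the line of equality. Green, orange and purple mark the MHC class II, NF-kB and latency III, and mitochondrially encoded lists, and circled genes are named. CCL22 and IFI44L lie below the line and SCNN1D above it.

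How often a difference was called followed the depth of a gene. The SD of the log2 ratio was 0.98 at a mean of 5 to 10 reads, where counting alone gives 0.84, and 16 of 1154 genes (1.39%) were called. At 1000 reads or more the SD was 0.22 against a counting error of 0.053, and 176 of 352 genes (50%) were called. Genes of few reads could therefore have had differences that this depth could not show, while for abundant genes differences well under 2-fold were called.

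**Figure D4:**
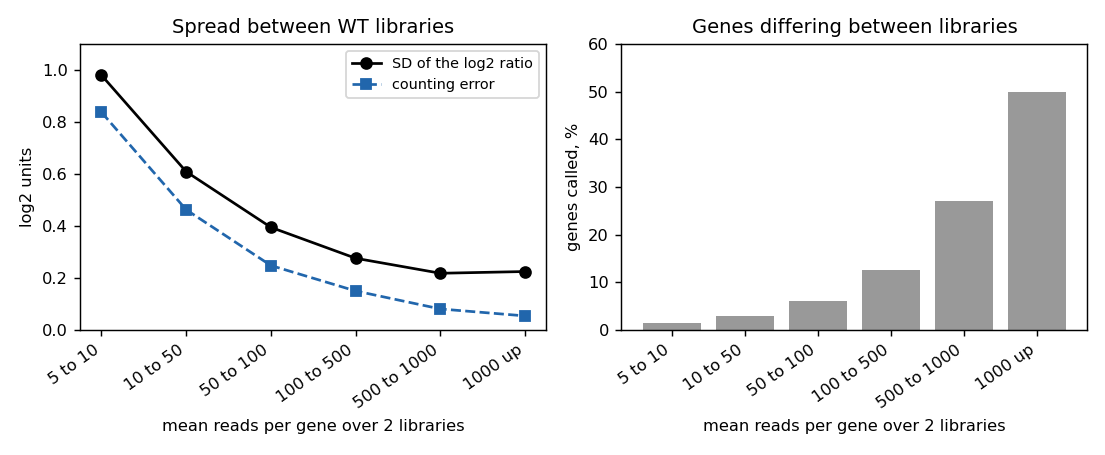
Left, the SD of the log2 ratio between the WT libraries (circles) and its counting error (squares), in log2 units, by mean reads per gene (x). Right, the share of tested genes called different (bars, %), from 1.39% at 5 to 10 reads to 50% at 1000 reads or more.

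NF-kB and interferon responsive genes were mostly higher in replicate 1, many of them by more than 2-fold. The NF-kB and latency III list, genes raised by NF-kB or by LMP1 in B cells, had 17 of 21 tested members called higher in replicate 1, where 5.78% of all tested genes were, and 1, TNF, higher in replicate 2, where 4.17% were. Its members had a median log2 ratio (replicate 2 over 1) of -0.81 against 0.02 over all tested genes. CCL22, a chemokine for T cells, had 192 and 21 reads, 82.5 and 7.02 CPM, a log2 ratio of -3.56 with a counting error (SE) of 0.33. EBI3, a cytokine subunit that Epstein-Barr virus induces, had 426 and 200 reads, 88.6 and 31.5 RPKM (log2 ratio -1.48, SE 0.12). TNFAIP3, the feedback inhibitor A20, had 264 and 120 reads, NFKBIA, the inhibitor IkBα, had 227 and 185, and the adhesion gene ICAM1 had 1006 and 772. CCR7, a homing receptor, TRAF1, a signalling adaptor, and FCER2, which is CD23 and also a member of the B cell surface list, had log2 ratios of -1.04, -1.02 and -1.09. BCL2A1, which protects from cell death, had 93 and 43 reads. NFKB1 itself had 151 and 196 reads, a log2 ratio of -0.02, and RELB and CFLAR were not called. TNF ran the other way with 27 and 72 reads.

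Of the list, 19 genes have a RefSeq promoter. The kappaB consensus was found in 12 of them (63.2%) against 11.8% of all genes, and a stricter form of the site, GGGANTTTCC, in 4 (21.1%) against 0.645%. The list was drawn up from known NF-kB targets, so these shares describe the list. Among tested protein coding genes with a promoter, the kappaB consensus was in 19.5% of those higher in replicate 1, 16.2% of those higher in replicate 2 and 14.7% of those not called. The first group holds called members of the list, such as CCL22, so these shares are not independent of it. Windows of 4 list genes are printed with each match in capitals, because CCL22 had the largest ratio of the list, EBI3 the highest mean RPKM, and TNFAIP3 and NFKBIA are the pathway's own inhibitors.
CCL22, chr16:57358563-57358642, plus strand: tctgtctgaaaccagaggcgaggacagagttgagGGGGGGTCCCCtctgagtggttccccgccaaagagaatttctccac
EBI3, chr19:4229274-4229353, plus strand: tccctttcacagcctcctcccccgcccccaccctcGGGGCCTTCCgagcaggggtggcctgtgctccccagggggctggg
TNFAIP3, chr6:137867169-137867248, plus strand: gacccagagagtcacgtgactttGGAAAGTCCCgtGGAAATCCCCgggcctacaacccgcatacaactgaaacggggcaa
NFKBIA, chr14:35404786-35404865, minus strand: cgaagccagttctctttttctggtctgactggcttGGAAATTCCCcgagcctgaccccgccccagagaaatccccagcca
The run in CCL22 holds 4 overlapping matches on both strands, and TNFAIP3 holds 2.

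Of the 8 largest ratios toward replicate 1, 4 were interferon-stimulated genes: IFI44L with 113 and 11 reads (log2 ratio -3.70, SE 0.45), IFI6 with 114 and 18 (-3.02, SE 0.36), IFIT3 with 73 and 22 (-2.10, SE 0.35) and CXCL10 with 96 and 36 (-1.80, SE 0.28). SPOCK2, TMCC3 and HLA-DQA2 were the others beside CCL22. A list of 35 interferon-stimulated genes was drawn up after this was seen, so its count is a description. Of its 23 tested members 14 were called higher in replicate 1 and 0 higher in replicate 2, against 5.78% and 4.17% of all tested genes. The median log2 ratio was -1.23 (-1.26 with the 2 members without reads in a library set at 3 reads). With at least 40 summed reads it was -0.54 over 17 members, of which 9 were called. ISG15, a ubiquitin-like protein, had 209 and 113 reads, 71.7 and 29.4 RPKM. IFI27 had 21 and 0 reads. MX1, RSAD2, USP18 and IFITM1 had no read in either library, and OAS1, EIF2AK2 and STAT2 were not called.

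The response element that interferon factors bind was searched as GAAANNGAAA on both strands. It was found in 20 of the 28 list genes with a promoter (71.4%), and in 3.71% of all genes. MX1, RSAD2 and IFITM1, which had no read, are among the 20. The list was drawn up from interferon-stimulated genes, so its share describes the list. Of tested protein coding genes, the element was in 6.80% of those higher in replicate 1, 3.98% of those higher in replicate 2 and 3.22% of those not called. The first group holds IFI44L, IFI6, IFIT3 and CXCL10, which carry the element and prompted the list. These shares are therefore a description too, and no separate support. Windows of 5 of the genes above are printed with the matches in capitals.
IFI44L, chr1:78620340-78620419, plus strand: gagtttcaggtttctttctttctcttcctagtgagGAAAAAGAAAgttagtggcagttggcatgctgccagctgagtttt
IFI6, chr1:27672241-27672320, minus strand: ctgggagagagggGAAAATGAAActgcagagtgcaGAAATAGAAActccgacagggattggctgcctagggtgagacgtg
IFIT3, chr10:89327840-89327919, plus strand: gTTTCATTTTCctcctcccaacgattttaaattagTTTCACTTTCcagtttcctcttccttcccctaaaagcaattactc
CXCL10, chr4:76023668-76023747, minus strand: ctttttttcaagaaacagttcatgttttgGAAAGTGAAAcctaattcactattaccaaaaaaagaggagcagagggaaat
ISG15, chr1:1013355-1013434, plus strand: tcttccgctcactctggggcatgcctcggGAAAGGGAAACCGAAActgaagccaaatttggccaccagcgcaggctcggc
In ISG15 the 2 matches overlap, and in IFIT3 both lie on the opposite strand. In all, 8 patterns were searched after the ratios were known, among them the E box CAGGTG (20.6% of all genes, 31.6% of the NF-kB list) and the inverted CCAAT letters ATTGG (37.0% of all genes). The windows were picked because they hold a match, and a match is no evidence that a factor was bound.

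**Figure D5:**
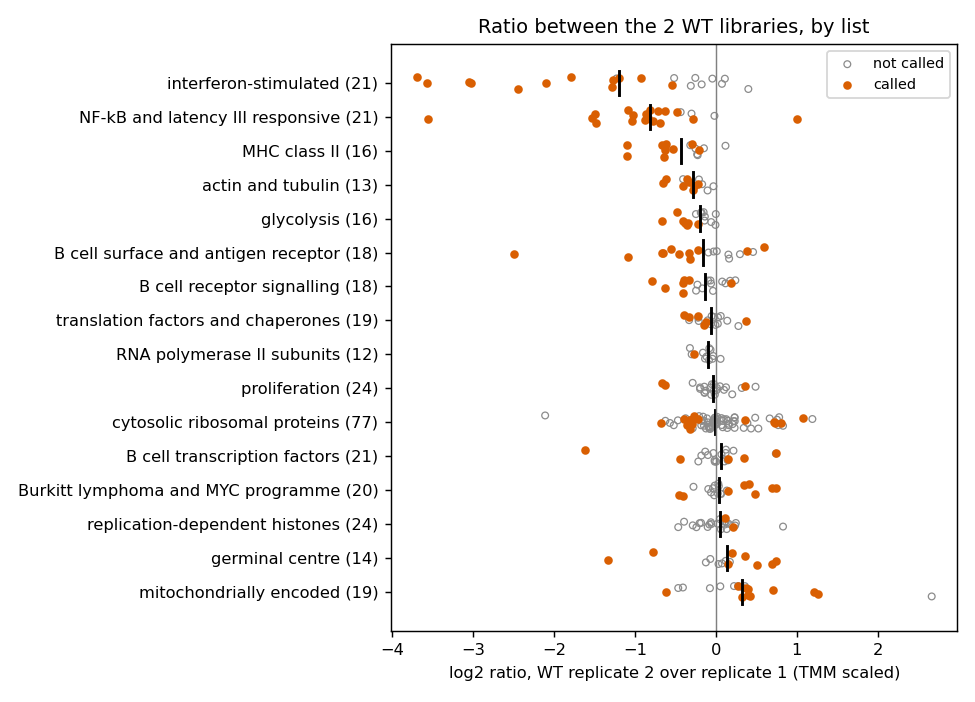
Each point is a tested gene with reads in both WT libraries, at its log2 ratio of replicate 2 over replicate 1 (x), by list (y, number of genes in brackets), and black bars are medians. Filled points passed the exact binomial test with adjustment at 0.05. The NF-kB and interferon lists lie to the left of 0 and the mitochondrially encoded list to the right.

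In the MHC class II and B cell surface lists, too, more members were called higher in replicate 1, against 5.78% of all tested genes. Many of these genes are abundant, and of all genes with a mean of 500 to 1000 reads 27.0% were called in either direction, and of those with 1000 or more 50%. Of 16 class II genes, 10 were called higher in replicate 1 and 0 higher in replicate 2, with a median log2 ratio of -0.43. HLA-DQA1 had 1042 and 637 reads (log2 ratio -1.10, SE 0.073) and HLA-DRA had 7682 and 6962 (-0.53, SE 0.024), while CIITA, RFX5, RFXANK and RFXAP were not called. Of 18 B cell surface genes, 9 were called higher in replicate 1, MS4A1 among them at -0.66, and 2, CD38 and CR2, higher in replicate 2, while FCRLA stood at -0.09 and was not called. IRF4, itself raised by NF-kB, had 92 and 39 reads. In addition, 8 of 13 actin and tubulin genes and 7 of 16 glycolysis genes were also called higher in replicate 1 and 0 of either list higher in replicate 2.

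In the germinal centre and mitochondrial lists more members were called higher in replicate 2 than in replicate 1, while 4.17% of all tested genes were called higher in replicate 2. Several genes of both lists are abundant, and of all genes with a mean of 1000 reads or more 50% were called in either direction. Of the 14 germinal centre genes 6 were called higher in replicate 2, with CXCR4, STMN1, SERPINA9, MME and BCL6 among them, and 2, CXCR5 and LMO2, higher in replicate 1. MME had 404 and 856 reads (log2 ratio 0.69, SE 0.087). STMN1, at a log2 ratio of 0.15, was not called with DESeq2 size factors, with scaling to total reads or without a filter on low counts. MYC was higher in replicate 2 as well, by 1.40-fold. Of 19 tested mitochondrially encoded genes 9 were called higher in replicate 2, MT-ND4 with 2178 and 3822 reads among them (0.42, SE 0.039). MT-RNR1 was the 1 called higher in replicate 1, with 5565 and 4770. The 8 largest ratios toward replicate 2 were SCNN1D with 11 and 70 reads, SNORA74B with 14 and 81, PPP1R3E with 7 and 41, SCARNA5 with 29 and 135, EPAS1 with 12 and 55, KCNJ11 with 18 and 75, ENSG00000197701 with 9 and 38, and the heat shock gene HSPA1B with 39 and 156. TRBC2 was 2.03-fold higher in replicate 2 (log2 ratio 1.02, SE 0.13).

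The counts of other lists stand beside 4.17% of all tested genes called higher in replicate 2 and 5.78% higher in replicate 1. In either direction 9.95% were called, and the RNA polymerase II, proliferation and histone lists lay near that share. Calls were also more frequent among genes of many reads. Of 20 genes of the Burkitt lymphoma and MYC list 6 were called higher in replicate 2 and 2 higher in replicate 1, and of 18 receptor signalling genes 1 and 6. Of 11 tested plasma cell genes 2 were called higher in replicate 2 and 3 higher in replicate 1, and of 19 translation genes 1 and 5. Of 10 tested small Cajal body RNAs 3 were called, all higher in replicate 2. Of 12 RNA polymerase II subunits 1 was called, POLR2L, and POLR2A stood at a log2 ratio of -0.03. Of 24 proliferation genes 2, BUB1 and RRM2, were higher in replicate 1 and 1, MCM5, higher in replicate 2. Of the histones 2 of 24 tested genes were called, and 14 of 77 tested ribosomal protein genes, the latter 9 toward replicate 1 and 5 toward replicate 2. Among markers of other cell types, the summed RPKM of the T cell list was 33.9 in replicate 1 and 67.1 in replicate 2, most of it TRBC2, and that of the monocyte and macrophage list was 26.4 and 18.7, most of it CSF1R. CD3D, GNLY, S100A8, HBB and EPCAM had 0 reads in both libraries. What sets the 2 libraries apart was not tested.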

How the data were processed

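RNA of 2 WT samples was analysed. The authors deposited, for each sample, raw read counts per Ensembl gene, RPKM, gene length and a total read number, per the file headers. Bowtie and hg19 are named in the submitters' processing notes, without a version. The counting program, annotation release, use of strand and treatment of reads with several matches are, for these files, not given in the sources used. The deposited RPKM equalled the count divided by length and total reads in all 51714 rows, within a relative tolerance of 0.0001. Symbols and gene types came from a name table and from GENCODE release 29, which is of another build. Of the identifiers 40926 matched, and only names and types were used.

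From the counts, CPM, shares with exact Clopper-Pearson intervals at 95%, and the log2 ratio of the libraries (0.5 reads added) were computed. The ratio was tested per gene with a two-sided exact binomial test (scipy 1.17.1), with libraries scaled by TMM (edgeR 4.0.16), at least 10 summed reads, and adjusted p under 0.05 after Benjamini-Hochberg. The test was run on data simulated with counting error only, so this check says nothing of spread between libraries beyond counting error. The common dispersion came from edgeR with an intercept-only design. "Expressed" means an RPKM of at least 1 in both libraries. Promoters came from RefSeq, GRCh38.p14, 250 bases before the start, and a gene counted if any of its starts held the pattern.

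Genes were named by rule: the 20 of highest CPM, the 10 coding genes of highest RPKM, the 5 highest under 200 bases, the leading members of each of 30 lists, the 8 largest called ratios per direction with a mean of at least 20 reads, the 4 markers, POLR2A, CARM1 and TDRD3. The members and lists were chosen with earlier results of these data known. Other members named, the low ones among them, and the promoter windows were picked after their values were seen. Values of some list members are not reported here.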

Additional observations from a re-analysis of the deposited data

How the results depend on the processing

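Under other scalings and filters the count of genes called between the libraries stayed within 1.5 times of 1193: it was 1166 with libraries scaled by their summed gene counts, 1221 with DESeq2 size factors, 1214 with the deposited total reads, 1007 without a filter on low counts and 1225 with at least 40 summed reads. With protein coding genes only, an alternative added after the data were seen, it was 1147. Scaling by summed counts moved the split most, from 500 higher in replicate 2 and 693 higher in replicate 1 to 602 and 564. In all these settings the NF-kB list had a count of 17 members higher in replicate 1 and 1 higher in replicate 2, and the MHC class II list had 9 or 10 higher in replicate 1. With at least 40 summed reads 17 interferon-stimulated genes were tested and 9 called higher in replicate 1, in place of 14, and with protein coding genes only the mitochondrial list had 0 such genes in place of 1, since MT-RNR1 is not tested there. Of 154 named genes that were tested, 7 changed their call under some alternative and 0 changed direction. The spread between the libraries was 11.5% to 11.8% in all settings run.

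With only genes of a known type in the denominator, the shares were 96.2% for protein coding genes, 1.72% for pseudogenes, 0.847% for immunoglobulin and T cell receptor segments, 0.739% for long noncoding RNAs and 0.286% for snoRNA and scaRNA, since the denominator is smaller. Counted as summed RPKM over genes of at least 200 bases, the leading 1, 10, 100, 1000 and 5000 genes held 29.3%, 37.9%, 49.5%, 70.5% and 92.4%, because short genes weigh more per length. No paired analysis was possible because the comparison is between the 2 replicates of a single group. Depth limits what can be said of genes with few reads, and 2 libraries give an SD with 1 degree of freedom.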
